A study of Rattus norvegicus with 6 samples.

Results

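The circadian clock genes examined here are the 10 genes *Clock*, *Arntl*, *Per1*, *Per2*, *Per3*, *Cry1*, *Cry2*, *Nr1d1*, *Nr1d2* and *Dbp*. Their accessible sites (ACS) were taken as every region of an ATAC-seq count table whose nearest gene carries one of these symbols. This gave 68 of 101603 distinct ACS, and they belong to 8 of the 10 genes. No ACS is listed under the symbol *Clock* or *Arntl*. The gene identifiers of these genes are listed with 3 and 15 ACS, under another symbol for *Clock* and with no symbol for *Arntl*, and these 18 ACS are described separately from the 68.

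ATAC-seq uses the Tn5 transposase, an enzyme that cuts accessible DNA and leaves sequencing adapters in it. Nuclei came from dissociated whole pancreatic islets of Sprague–Dawley rats, with 100000 islet cells per library and no sorting of cell types. The adult group held 3 libraries from male rats of about 90 days, 1 rat each (replicates 4 to 6). The P10 group held 3 libraries from pups aged 10 days, each from a few pups of 1 litter (replicates 1 to 3), and the pups of the study were male and female. No treatment or transgene is given for either group, and the animals lived on a cycle with 12 h of light. The hour of sacrifice is not given in the sources used here, so the clock phase of each library is unknown. Pancreases of P10 pups were digested with collagenase by hand shaking, while in adults the collagenase was injected into the duct. Isolated islets were then held in culture medium with glucose and serum. Age, sex, the pooling of pups and the way of digestion differ together between the groups and cannot be told apart.

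The clock is a feedback loop of transcription. CLOCK and ARNTL (also called BMAL1) bind E-box elements as a pair and switch on the *Per*, *Cry*, *Nr1d* and *Dbp* genes. PER and CRY proteins then block that pair, the nuclear receptors NR1D1 and NR1D2 (REV-ERB alpha and beta) repress *Arntl* through ROR elements, and DBP acts on D-box elements of output genes. Islets have a clock of their own, and in mice the loss of *Arntl* in islet cells impairs insulin secretion.

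These elements are shown in the promoters that carry them, since each links a member to another member as background. The sequences are RefSeq promoters of the GRCr8 assembly, 250 bases before and 50 bases after a start, printed in the direction of the gene. Capitals mark the E-box letters CACGTG, the E-box variant CACGTT, the D-box letters TTATGTAA or TTACGTAA, or the core of a ROR element, AGGTCA, each searched on both strands, and no match overlapped another. The table held 11 promoters for 9 of the 10 genes. A match is a description of letters and not a binding site.
Arntl (chr1:176766078-176766377, plus strand): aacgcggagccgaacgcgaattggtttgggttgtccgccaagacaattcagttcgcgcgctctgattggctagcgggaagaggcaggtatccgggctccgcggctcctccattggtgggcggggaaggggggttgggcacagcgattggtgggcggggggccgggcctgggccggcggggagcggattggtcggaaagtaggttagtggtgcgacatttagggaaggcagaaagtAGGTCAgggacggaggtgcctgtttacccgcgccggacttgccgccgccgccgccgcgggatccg
Per2 (chr9:99496944-99497243, minus strand): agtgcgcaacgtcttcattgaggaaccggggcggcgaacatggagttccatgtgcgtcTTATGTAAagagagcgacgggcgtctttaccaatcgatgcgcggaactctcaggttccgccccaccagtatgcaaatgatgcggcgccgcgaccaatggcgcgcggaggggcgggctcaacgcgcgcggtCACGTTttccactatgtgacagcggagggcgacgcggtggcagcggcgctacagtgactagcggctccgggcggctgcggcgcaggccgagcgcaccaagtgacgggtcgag
Cry2 (chr3:98860388-98860687, minus strand): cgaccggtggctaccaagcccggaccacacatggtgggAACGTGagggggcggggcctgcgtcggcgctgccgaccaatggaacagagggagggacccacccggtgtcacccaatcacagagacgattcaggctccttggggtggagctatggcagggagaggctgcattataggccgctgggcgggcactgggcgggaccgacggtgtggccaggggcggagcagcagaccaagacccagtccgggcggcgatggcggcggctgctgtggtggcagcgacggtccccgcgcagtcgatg
Nr1d1 (chr10:84231763-84232062, minus strand): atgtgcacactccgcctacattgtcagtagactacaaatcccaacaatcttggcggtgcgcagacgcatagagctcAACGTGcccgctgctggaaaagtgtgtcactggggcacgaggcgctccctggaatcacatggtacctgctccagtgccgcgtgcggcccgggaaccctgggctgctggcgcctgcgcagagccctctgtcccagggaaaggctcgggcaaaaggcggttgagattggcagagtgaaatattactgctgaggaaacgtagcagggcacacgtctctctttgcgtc
Nr1d1 (chr10:84229405-84229704, minus strand): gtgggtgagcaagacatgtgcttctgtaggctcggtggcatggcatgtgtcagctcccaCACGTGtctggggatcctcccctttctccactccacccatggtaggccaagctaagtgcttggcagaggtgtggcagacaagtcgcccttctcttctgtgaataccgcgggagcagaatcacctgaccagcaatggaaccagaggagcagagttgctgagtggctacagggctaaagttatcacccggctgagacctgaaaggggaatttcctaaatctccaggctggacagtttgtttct
Nr1d2 (chr15:9954784-9955083, plus strand): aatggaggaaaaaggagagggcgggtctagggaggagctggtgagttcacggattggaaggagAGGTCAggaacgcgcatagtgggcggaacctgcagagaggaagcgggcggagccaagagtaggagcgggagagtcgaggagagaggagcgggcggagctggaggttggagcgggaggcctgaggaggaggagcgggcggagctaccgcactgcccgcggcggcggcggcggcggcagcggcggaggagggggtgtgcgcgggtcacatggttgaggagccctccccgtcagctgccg

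CACGTT was present in 3 of the 11 promoters, at *Per2*, *Cry2* and the upstream start of *Nr1d1*, and in 4.83% of 33469 rat promoters of the same length. CACGTG was present in 1 of 11, 191 bases before the downstream start of *Nr1d1*, and in 6.42% of all promoters. The D-box letters occurred 192 bases before the start of *Per2* and in 1.01% of all promoters. AGGTCA lay 15 bases before the start of *Arntl* and 187 bases before that of *Nr1d2*, and was present in 16.2% of all promoters. The cAMP response element letters TGACGTCA were in none of the 11 windows and in 1.83% of all promoters. The only *Per1* window belongs to a start 5374 bp inside the GRCr8 span of the gene. The beginning of that span was not searched, so the absence of letters does not cover it. Of the 2 *Clock* windows, 1 belongs to a start 37798 bp inside the span.

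The question put to these ACS was whether they differ in accessibility between P10 and adult islets. The deposited values are numbers of Tn5 integrations inside ACS, from 7916919 to 11903909 per adult library and from 13491534 to 21168463 per P10 library. Levels below are integrations in an ACS relative to all integrations in ACS of the library, as CPM after TMM scaling, with the SD over 3 libraries. Fold changes are adult over P10 on the log2 scale with their SE from the quasi-likelihood test of edgeR. An ACS was called Up (more accessible in adults) or Down when its p-value was under 0.05 and its FDR under 0.2, the limits of the study. Distances run from the lower-coordinate edge of an ACS to the start of its nearest gene on the Rn5 assembly, negative upstream. The study's classes were TSS within 1000 bp of the start, PROXIMAL within 10000 bp and DISTAL beyond. An ACS may act on a gene other than the one it is listed with.

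Of the 68 ACS, 13 were Up and 1 was Down, where 12.3% of all ACS were Up and 6.63% were Down. All 14 called ACS were listed with *Nr1d2* (10 Up and 1 Down of 29) or *Cry1* (3 Up of 18). Of the 21 ACS of *Per1*, *Per2*, *Per3*, *Cry2*, *Nr1d1* and *Dbp*, edgeR called 0, with 1 at an unadjusted p-value under 0.05. DESeq2 and limma's voom also called 0 of them, the robust edgeR fit 1 Down, column sums 2 Down and loess scaling 3 Down. The *Per1* ACS 5810 bp upstream was called in each of these last 3. The median fold change of the 68 was -0.01, and that of all ACS was also -0.01. The adult values lay above all P10 values at 9 of the 68 ACS and below them at 0, where 13.8% and 10.9% of all ACS did so.

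**Figure D1:**
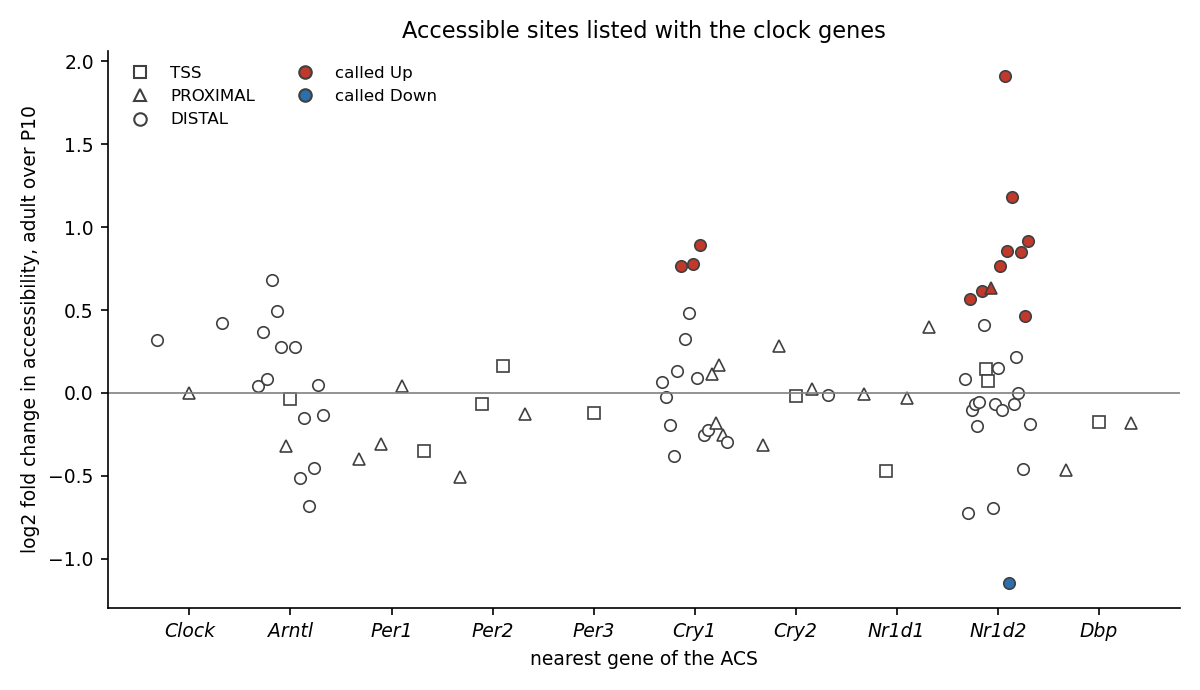
Log2 fold change in accessibility of every ACS listed with the clock genes (vertical axis), by nearest gene (horizontal axis) and ordered by distance within a gene. Squares, triangles and circles are TSS, PROXIMAL and DISTAL ACS, filled where called, and the filled points are those of *Cry1* and *Nr1d2*. *Clock* and *Arntl* were added by gene identifier.

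Most of the called ACS were DISTAL. By class, 12 of 41 DISTAL ACS were Up and 1 was Down, beside 13.8% Up, 6.45% Down and 20.2% in either direction among all DISTAL ACS. Of 18 PROXIMAL ACS, 1 was Up, beside 11.2% Up and 6.71% Down. Of the 28 ACS over 100 kb from a start, 9 were Up and 1 was Down, beside 13.6% Up and 6.21% Down among all ACS at that distance. Between 10 and 100 kb, 3 of 13 were Up and 0 Down, beside 13.9% Up and 6.69% Down among all ACS. Within 10 kb, 1 of 27 was Up and 0 were Down, beside 6.74% Up and 7.32% Down among all ACS at that distance. None of the 9 ACS of class TSS was called by edgeR, where 10.6% of all TSS ACS were (2.73% Up and 7.87% Down), and 0 had an unadjusted p-value under 0.05. DESeq2, voom and the robust fit also called 0, and column sums and loess scaling each called the TSS ACS of *Nr1d1* Down. The TSS ACS of the clock genes held a median of 516.5 integrations per library, against 235.5 for all TSS ACS, so the lack of calls came with higher counts than usual for the class. Their median fold change was -0.07, and that of all TSS ACS was -0.10.

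ACS of *Clock* and *Arntl*, the activators, were found by gene identifier after the table had been read. Of these 18, edgeR called 0, where 18.9% of all ACS were called, and 0 had an unadjusted p-value under 0.05. DESeq2, voom and the robust fit also called 0, column sums 1 and loess scaling 3. The start of *Arntl* was covered by an ACS of 944 bp (-672 bp) with 78.2, 59.3 and 65.9 CPM in adults and 68.0, 75.0 and 65.4 CPM at P10. The groups overlapped, and the fold change of -0.03 had a 95% interval from -0.35 to 0.28. The other 14 *Arntl* ACS ran from -0.68 to 0.68. At 2 of them the groups did not overlap, where adults lay above P10 at 13.8% of all ACS and below at 10.9%. Adults held 2.89, 3.21 and 2.32 CPM against 2.05, 1.5 and 1.69 at P10 in the ACS 89757 bp upstream (0.68, FDR = 0.272). They held 6.05, 6.82 and 5.03 CPM against 10.2, 7.28 and 8.09 in the ACS 30202 bp inside the gene (-0.51, FDR = 0.249). Neither passed the test.

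The table lists no TSS ACS with *Clock*. Its most accessible ACS lay 39289 bp upstream of the listed start, with 34.4, 27.0 and 41.9 CPM in adults and 25, 28.6 and 29.0 CPM at P10. In the GRCr8 annotation *Clock* has 2 starts, 37795 bp apart. No position was carried over between the assemblies, so which of them the listed Rn5 start matches is unknown. The class of this ACS could depend on it. Its fold change was 0.32 (95% interval -0.05 to 0.69, FDR = 0.327). Summed over the 3 ACS, *Clock* reached 42.9, 37.6 and 51.9 CPM in adults and 34.0, 35.6 and 37.0 CPM at P10. All 3 adult values lay above the P10 values, and the fold change of 0.31 had an FDR of 0.282. Without adult replicate 5 the sum was Up (0.41, FDR = 0.169).

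Among the period genes, whose products repress the CLOCK and ARNTL pair, the start of *Per2* was covered by an ACS (136 bp) with 46.4, 36.5 and 39.3 CPM in adults and 46.3, 42.2 and 39.5 CPM at P10. The fold change was -0.07 ± 0.16 (SE) and the groups overlapped. A further TSS ACS of *Per2* (997 bp) held 29.9, 23.8 and 17.9 CPM in adults and 27.3, 19.8 and 16.9 CPM at P10 (0.16 ± 0.21). Its groups overlapped as well. The *Per2* window printed above, with the CACGTT and D-box letters, belongs to this start by name, but it was read from another assembly and no position was carried over.

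*Per3* has 1 ACS, 141 bp upstream, with 42.7, 43.9 and 37.3 CPM in adults and 50.3, 46.2 and 38.5 CPM at P10 (-0.12 ± 0.16). Its groups overlapped. *Per1* has 4 ACS, all within 10 kb upstream. Its TSS ACS (-696 bp) held 7.41, 8.18 and 5.67 CPM in adults and 13.1, 6.92 and 7.14 CPM at P10 (-0.35 ± 0.27), and the highest P10 value stood apart from the other 2.

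The most accessible *Per1* ACS was PROXIMAL, 5810 bp upstream, with 40.9, 33.9 and 29.4 CPM in adults and 58.6, 41.6 and 37.3 CPM at P10. Its fold change of -0.40 ± 0.18 had a p-value of 0.0385 and missed the FDR limit narrowly (0.202), and the groups overlapped. In GRCr8 the span of *Per1* begins 5374 bp before the promoter start listed for it, so here too the class depends on the start used. The other PROXIMAL ACS of *Per1*, 3493 and 1935 bp upstream, had fold changes of -0.31 and 0.04. At *Per2*, the ACS 7424 bp upstream held 3.80, 5.84 and 3.74 CPM in adults and 6.83, 6.49 and 5.76 CPM at P10 (-0.51, FDR = 0.311), with a narrow overlap. The *Per2* ACS 2647 bp inside the gene had a fold change of -0.12, and its highest value was that of P10 replicate 1, at 44.0 CPM against 22.2 and 24.5 CPM in the other P10 libraries.

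The cryptochromes, the partners of the PER proteins, differed in how many ACS they were listed with. *Cry2* has 5, from -0.31 to 0.28, and none was called. Its start ACS (220 bp) held 53.1, 49.2 and 46.9 CPM in adults and 57.5, 48.1 and 45.4 CPM at P10 (-0.02 ± 0.16, 95% interval -0.34 to 0.31). Of the others, the ACS 2776 bp upstream had the highest fold change (0.28, FDR = 0.561), and in the ACS 9546 bp inside the gene the ages differed by 0.02. The ACS over the start of *Cry1* is 1390 bp wide and fell into the PROXIMAL class because its lower edge lies 1030 bp upstream. It held 58.2, 51.3 and 58.0 CPM in adults and 55.1, 55.1 and 44.7 CPM at P10 (0.11 ± 0.16). In both genes the groups overlapped at the start.

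**Figure D2:**
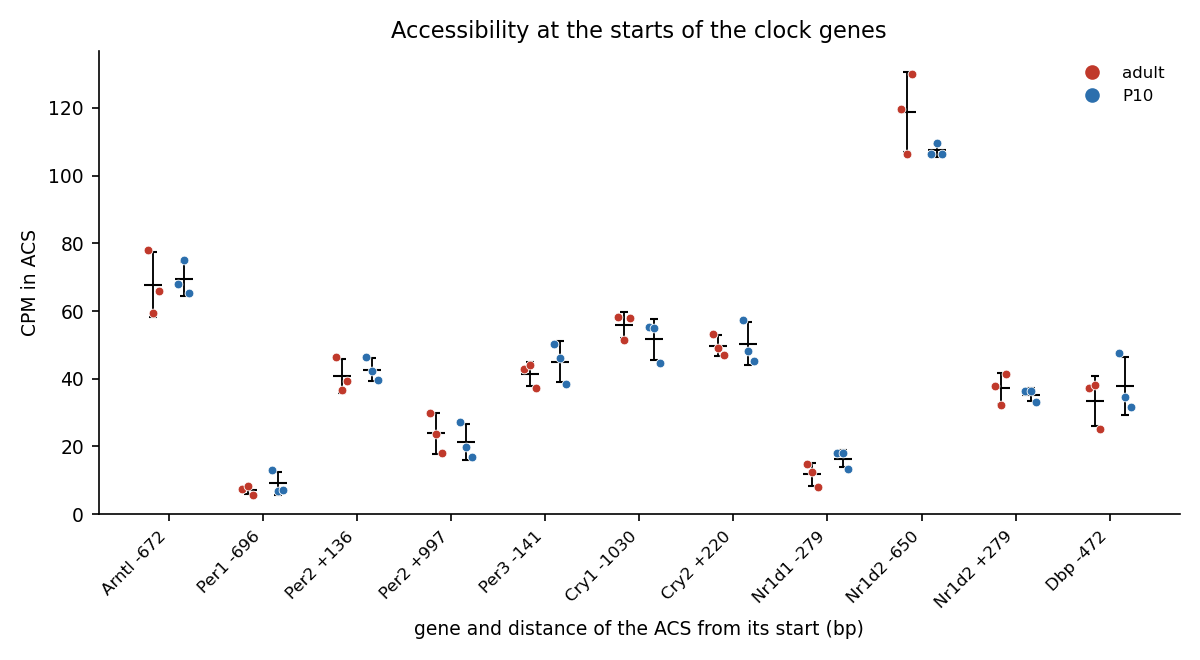
CPM per library (vertical axis) at the 10 TSS-class ACS of the clock genes and at the ACS over the start of *Cry1*, labelled by gene and distance in bp. Red and blue points are the 3 adult and 3 P10 libraries, bars are means with SD, and the 2 ages overlap at all 11 ACS. Of all TSS ACS, 20.8% were without overlap in either direction, so overlap was usual for the class.

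The 3 Up ACS of *Cry1* were all DISTAL and upstream of the gene, in a stretch of 529036 bp between *Pwp1* and *Cry1*. No other gene with a symbol was found there among the genes nearest to an ACS. MicroRNA genes, genes without a symbol and genes nearest to no ACS were not searched. The ACS at -177325 bp (chr7:24506565-24507069) had 18.3, 17.7 and 20.9 CPM in adults and 11.9, 10.5 and 10.7 CPM at P10. The groups were well apart, at 19.0 ± 1.69 and 11.0 ± 0.729 CPM (SD, n = 3 each), and the fold change was 0.78 ± 0.20 (FDR = 0.0137). The ACS at -210374 bp held 16.9, 12.9 and 11.0 CPM in adults and 9.44, 8.27 and 6.34 CPM at P10, also without overlap (0.76 ± 0.24, FDR = 0.0414). The ACS at -111660 bp held 9.22, 3.70 and 9.54 CPM in adults and 5.11, 3.42 and 3.44 CPM at P10. It overlapped through adult replicate 5, and its fold change was 0.89 ± 0.32 (FDR = 0.0778). These were 3 of 11 *Cry1* ACS over 100 kb upstream. The most accessible ACS of that stretch, 218342 bp upstream, held 47.4, 35.8 and 41.8 CPM in adults and 42.2, 35.7 and 36.2 CPM at P10 and was not called (0.13, 95% interval -0.21 to 0.47). The other 4 *Cry1* ACS inside the gene, from 1036 to 47541 bp, ran from -0.29 to 0.17. At the least accessible, 9746 bp inside, no library exceeded 1.21 CPM.

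*Nr1d1* and *Nr1d2* encode the REV-ERB receptors, and they differed in the number of ACS in the same way. *Nr1d1*, whose span overlaps that of the thyroid hormone receptor gene *Thra*, has 4 ACS. Its TSS ACS (-279 bp) held 14.7, 12.6 and 7.86 CPM in adults and 17.9, 17.9 and 13.4 CPM at P10. The groups overlapped, and the fold change was -0.47 ± 0.23 (FDR = 0.238). It was Down with column sums (-0.57, FDR = 0.118), with loess scaling (-0.64, FDR = 0.0865), without adult replicate 4 (-0.67, FDR = 0.131) and without P10 replicate 3 (-0.62, FDR = 0.19). The ACS 1246 bp inside the gene was the most accessible of *Nr1d1*, at 27.2, 29.6 and 23.1 CPM in adults and 30.8, 27.5 and 23.3 CPM at P10 (-0.03). The ACS 2050 bp inside and 8032 bp upstream had fold changes of 0.40 (FDR = 0.446) and -0.01. GRCr8 lists 2 starts of *Nr1d1*, 2358 bp apart, and the window with CACGTG belongs to the downstream start.

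*Nr1d2* had the most accessible start of the list. The ACS over it (-650 bp) held 120, 106 and 130 CPM in adults and 106, 110 and 106 CPM at P10, with a fold change of 0.14 ± 0.14. The other TSS ACS of *Nr1d2* (279 bp) held 38.0, 32.2 and 41.2 CPM in adults and 36.4, 36.2 and 33.1 CPM at P10 (0.07 ± 0.17). Both overlapped between ages. The 10 Up ACS of the gene lay away from its start, inside the gene and on both sides of it.

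The ACS at 85579 bp (chr15:12878338-12878591), beyond the end of *Nr1d2*, had the highest fold change of the 68. It held 10.7, 6.82 and 10.7 CPM in adults and 3.49, 2.21 and 1.69 CPM at P10. The lowest adult value stood well above the highest P10 value, and the fold change was 1.91 ± 0.30 (95% interval 1.29 to 2.54, FDR = 0.000116). The ACS lies between *Nr1d2* and *Thrb*, 72959 bp from the latter, which encodes the thyroid hormone receptor beta.

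Further along the same gap, the ACS at 143948 bp held 27.9, 15.5 and 21.5 CPM in adults and 14.0, 9.77 and 12 CPM at P10 (0.86 ± 0.22, FDR = 0.0133). The groups did not overlap, and *Thrb* is 14259 bp away. The ACS at 49180 bp held 8.58, 4.09 and 5.67 CPM in adults and 2.70, 4.71 and 3.54 CPM at P10 (0.76 ± 0.31, FDR = 0.137), with overlap.

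Inside the gene, the PROXIMAL ACS at 3565 bp held 17.9, 17.7 and 23.5 CPM in adults and 16.6, 9.56 and 11.7 CPM at P10 (0.63 ± 0.22, FDR = 0.0755). Upstream, the ACS at -34555 bp held 12.7, 10.3 and 12.8 CPM in adults and 7.16, 8.20 and 7.93 CPM at P10 (0.62 ± 0.23, FDR = 0.0949). Neither overlapped. The ACS at -203268 bp held 27.5, 14.3 and 23.2 CPM in adults and 13.9, 13.3 and 16.6 CPM at P10 and overlapped through adult replicate 5 (0.57 ± 0.22, FDR = 0.114).

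The remaining 5 called ACS of *Nr1d2* lie inside the span of *Thrb*, although *Nr1d2* is listed as the nearest gene. Of the 29 ACS, 10 lie inside that span (4 Up and 1 Down) and 19 outside it (6 Up and 0 Down). A further 44 ACS are listed with *Thrb* itself, of which 11 were Up and 0 Down. The shares of all ACS were 12.3% Up and 6.63% Down, and those of all DISTAL ACS 13.8% and 6.45%. Which of the 2 genes, if either, these ACS act on was not tested.

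Within the *Thrb* span, the ACS at 175234 bp held 7.32, 7.30 and 8.51 CPM in adults and 3.63, 3.28 and 3.22 CPM at P10. The libraries of each age were close together and the ages far apart (1.18 ± 0.27, FDR = 0.00446). The ACS at 198024 bp held 10.1, 6.33 and 10.3 CPM in adults and 6.32, 4.85 and 3.59 CPM at P10 (0.85 ± 0.28, FDR = 0.052), with adult replicate 5 just above P10 replicate 1. The ACS at 234464 bp held 2.89, 2.34 and 3.35 CPM in adults and 1.72, 1.21 and 1.53 CPM at P10, without overlap (0.92 ± 0.36, FDR = 0.124).

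The ACS at 225332 bp held 34.4, 24.9 and 29.6 CPM in adults and 28.1, 17.4 and 18.9 CPM at P10 (0.46 ± 0.20, FDR = 0.165). The only Down ACS of the clock genes, at 170064 bp, held 1.08, 0.487 and 1.68 CPM in adults and 3.11, 1.64 and 2.17 CPM at P10 (-1.14 ± 0.44, FDR = 0.111). Both overlapped. The 18 *Nr1d2* ACS that were not called ran from -0.72 to 0.41. The Down ACS was among the least accessible ACS of the gene.

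**Figure D3:**
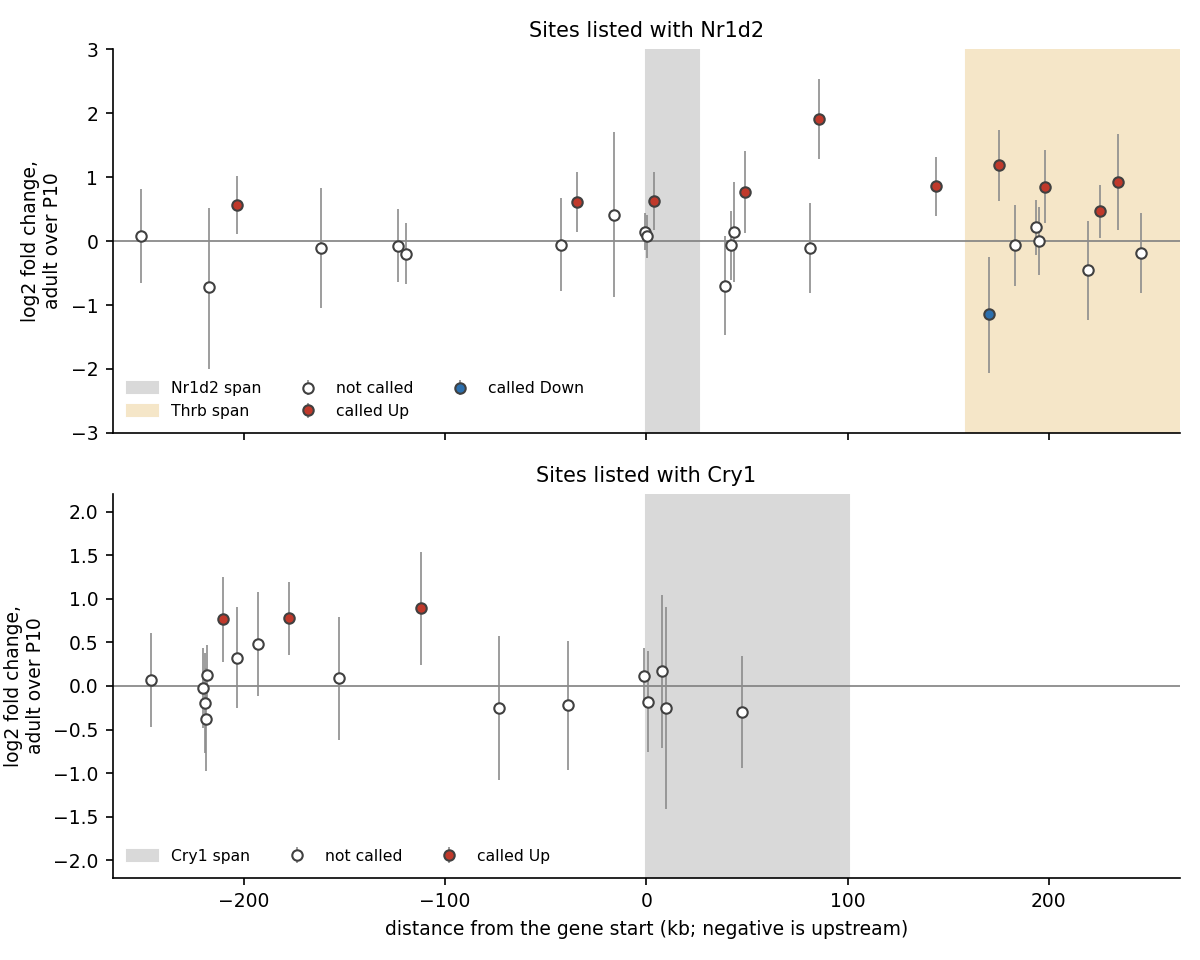
Log2 fold change with its 95% interval (vertical axis) of the 29 ACS listed with *Nr1d2* and the 18 listed with *Cry1*, by distance from the gene start in kb (horizontal axis). Shaded bands are the spans of the listed gene and of *Thrb*, and filled points are the called ACS, which in *Cry1* all lie over 100 kb upstream.

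**Figure D4:**
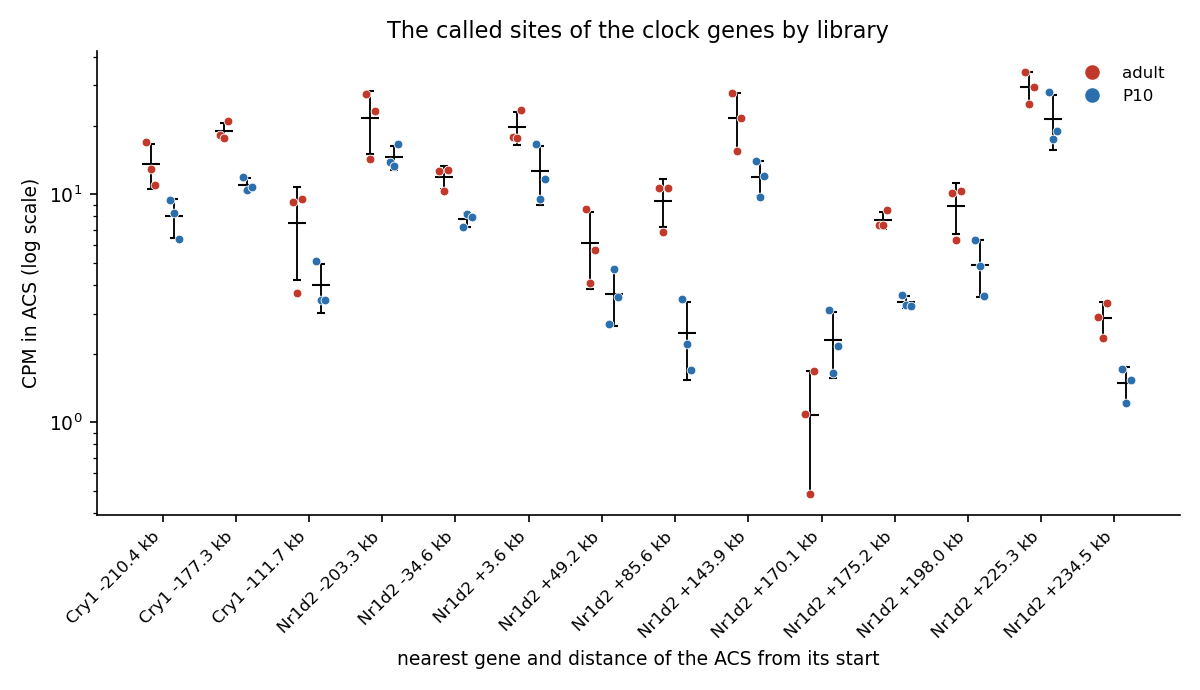
CPM per library on a log axis (vertical) at the 14 called ACS, labelled by nearest gene and distance in kb. Red and blue points are adult and P10 libraries and bars are means with SD. At 9 of the 14 all adult points lie above all P10 points, but the ACS were called on these same values. Over the 68 ACS the number is also 9, beside 13.8% of all ACS.

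Not all of these calls rested equally on the libraries. When each of the 6 libraries was left out in turn, 4 of the 14 ACS were called every time, namely those of *Cry1* at -177325 bp and of *Nr1d2* at 85579, 143948 and 175234 bp. The number of Up ACS fell from 13 to 6 without adult replicate 4, to 7 without adult replicate 6, to 7 without P10 replicate 2 and to 5 without P10 replicate 3. All ACS called Up fell from 12504 to 9709, 10886, 7973 and 8908 in the same 4 fits. At an FDR under 0.05, 5 clock gene ACS were Up and 0 were Down, beside 7177 Up and 1945 Down of all 101603 ACS.

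*Dbp*, the output gene of the list, has 3 ACS within 10 kb, and none was called. The ACS over its start (-472 bp) held 37.1, 38.2 and 25 CPM in adults and 47.5, 34.5 and 31.6 CPM at P10 (-0.18 ± 0.19), with overlap. The other 2 had fold changes of -0.47 (-1027 bp, FDR = 0.384) and -0.18 (2391 bp, FDR = 0.768).

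P10 replicate 1 was the highest of the 3 P10 libraries at 21 of the 27 TSS and PROXIMAL ACS of the list, beside 50.3% of all TSS and PROXIMAL ACS. Without it, the fold change of the *Per1* TSS ACS went from -0.35 to 0.01 and that of the *Dbp* start from -0.18 to 0.01. The part of this library in the values near the starts was not tested further.

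Counts were also summed over all ACS of a gene, which gives each gene 1 value. None of the 8 genes was called by edgeR, DESeq2 or voom on these sums, 1 (*Nr1d2*) had an unadjusted p-value under 0.05, and 13.4% of 14776 genes were called (8.71% Up and 4.64% Down). Column sums called *Per1* Down (-0.39, FDR = 0.179), and the robust edgeR fit called *Nr1d2* Up (0.28, FDR = 0.198). Of the fits that left out 1 library, *Nr1d2* was called without adult replicate 5 and without P10 replicate 1, and *Per1* without P10 replicate 3. *Nr1d2* summed to 387, 316 and 397 CPM in adults and 316, 292 and 295 CPM at P10, with overlap at adult replicate 5 and P10 replicate 1 (0.28 ± 0.13, FDR = 0.232). *Cry1* summed to 219, 178 and 197 CPM in adults and 191, 180 and 154 CPM at P10 (0.18 ± 0.12, FDR = 0.454). *Per1* had the lowest fold change, -0.29 (FDR = 0.373), and *Cry2* the one nearest to 0, at 0.02 (95% interval -0.27 to 0.31).

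Other sites near the genes were listed with other neighbours. Inside the spans of *Per2*, *Cry2* and *Cry1* lie 5 such ACS, of which 2 were called. An ACS inside *Per2* that is listed with *Hes6* was Down (-1.05, FDR = 0.142), with 1.08, 1.36 and 0.516 CPM in adults and 2.18, 1.43 and 2.64 CPM at P10. An ACS inside *Cry2* that is listed with *Mapk8ip1* was Up (0.56, FDR = 0.158), with 17.4, 18.2 and 13 CPM in adults and 15.4, 8.70 and 8.72 CPM at P10. The groups overlapped at the latter and came close without overlap at the former. Taking every ACS within 50 kb of the start of a clock gene, whatever its nearest gene, gave 80 ACS with 7 Up and 4 Down. Only genes found by symbol were used here, so the starts of *Clock* and *Arntl* were left out. The 43 of them with another nearest gene held 4 Up and 4 Down. Among all ACS, 12.3% were Up and 6.63% were Down.

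The other genes of the clock pathway, 23 symbols from textbook knowledge, held 131 ACS under 16 symbols, with 22 Up and 6 Down. Called in either direction were 21.4% of them, near the 18.9% of all ACS. This list was chosen with earlier results of these data known. Called ACS were spread over 11 genes, with Up only in 7, Down only in 3 and both in 1. *Npas2*, a paralog of *Clock*, had 3 Up of 9 and the ROR receptor gene *Rorb* 2 Up of 16. *Nfil3*, a repressor that acts on D-boxes, had 3 Up of 9 and *Bhlhe40*, a repressor that acts on E-boxes, 3 Up of 18. *Tef*, a relative of *Dbp*, had 3 Down of 3. Of the kinase genes, *Csnk1d* and *Csnk1e* had 1 Down each, of 3 and 4 ACS, and *Csnk1a1* had 2 Up of 7.

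The called ACS with the smallest p-value was 146422 bp upstream of *Rorb*, with 77.8, 69.0 and 63.7 CPM in adults and 22.4, 23.4 and 27.2 CPM at P10 (1.53 ± 0.16, FDR = 7.34e-07). An ACS 7901 bp inside *Ccrn4l*, which encodes nocturnin, a clock-controlled enzyme, held 25.3, 13 and 18.7 CPM in adults and 4.79, 3.78 and 2.22 CPM at P10 (2.40 ± 0.28, FDR = 2.5e-06). An ACS 35494 bp inside *Npas2* held 26.1, 29.4 and 31.2 CPM in adults and 10.8, 8.56 and 10.1 CPM at P10 (1.55 ± 0.20, FDR = 7.21e-06). In all 3 the ages were far apart. The ACS 102134 bp upstream of *Nfil3* (1.08 ± 0.20, FDR = 0.000477) and 208172 bp upstream of *Ccrn4l* (1.09 ± 0.27, FDR = 0.00829) completed the 5 with the smallest p-values, and neither overlapped between the groups.

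The libraries were of whole islets, so fewer cells of a type and less open chromatin per cell cannot be told apart. Marker lists were read as summed CPM over the ACS of each list, and their calls stand beside 12.3% Up and 6.63% Down among all ACS. The 5 endothelial markers (55 ACS) ranged from 390 to 470 CPM in adults and from 350 to 361 CPM at P10, with 10 Up and 1 Down. The islet endocrine list (107 ACS) ranged from 921 to 1122 CPM and from 964 to 1211 CPM, with 10 Up and 14 Down, and no ACS was listed for *Ppy* and *Mafa*. The TSS ACS of *Ins1* and *Ins2* were Down (-0.75 and -1.12), and those of *Gcg* and *Sst* were not called (-0.23 and -0.44). P10 replicate 1 was the highest P10 library at both insulin genes. It held 203 CPM against 106 and 134 CPM at *Ins1*, and 17.7 CPM against 8.77 and 7.77 CPM at *Ins2*. The acinar list (54 ACS) ranged from 367 to 398 CPM in adults and from 346 to 366 CPM at P10, and the duct list (38 ACS) from 244 to 277 CPM and from 212 to 236 CPM. Leukocyte markers (10 ACS) ranged from 63.2 to 81.2 CPM and from 53.7 to 64.6 CPM, stromal markers (39 ACS) from 173 to 222 CPM and from 182 to 190 CPM, and proliferation markers (20 ACS) from 256 to 272 CPM and from 243 to 273 CPM. The acinar and duct lists each had 4 Up and 5 Down. Calls were 1 Up and 1 Down for leukocyte, 5 Up and 4 Down for stromal, and 3 Up and 0 Down for proliferation markers. The part of the endothelial, acinar and duct levels in the Up calls of *Nr1d2* and *Cry1* was not tested.

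The split of calls depended on the scaling. Of all called ACS, 65% were Up with TMM, 49.3% with column sums, 54.9% with loess scaling and 1.69% with the total reads of each library as its size. The median fold change of all ACS was -0.01, -0.10, -0.03 and -0.84 in the same order. The median of the 68 clock gene ACS was, in that order, -0.01, -0.11, -0.08 and -0.88.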

How the data were processed

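ATAC-seq was measured in 6 libraries, 3 adult and 3 P10, grouped by the titles given to the samples. The authors aligned reads to Rn5 with BWA 0.7.13, removed reads on mitochondrial DNA and those mapped with low quality, ran MACS2 2.1.1 on the reads of each age together, joined both sets of peaks and counted Tn5 integrations per ACS with pyDNase. They deposited whole-number counts per ACS and library with no normalization. Whether PCR duplicates were removed is not given in the sources used here, so errors cover counting and replicate spread only. The deposited table also holds the authors' own comparison (a log2 fold change, mean log2 CPM, p-value, FDR and F score), which was not used. The nearest gene and its position, on Rn5, were used.

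Of 101941 entries, 101603 were distinct ACS and entered once. Depth per library was 7916919 to 21168463 integrations, with TMM factors from 0.93 to 1.04. Pairs of libraries of 1 age differed by more than counting noise (chi-square per degree of freedom 3.36 to 7.82), so all were kept as replicates. The test was the quasi-likelihood F test of edgeR 4.0.16 in R 4.3.3 with age as the only term and Benjamini-Hochberg adjustment over all ACS, or over 14776 genes for summed counts. On simulated counts with 200 ACS changed by 1 on the log2 scale, 33% were called in the right direction, 99% had the right direction, the median estimates were 0.98 and -0.97, and 21 unchanged ACS were called. These 200 are a far smaller share of the 101603 ACS than the 18.9% called in the data. With so few changed, the FDR limit asks for a smaller p-value, so the 33% is not the share found in the data.

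The members and lists were chosen with earlier results of these data known. The text names all 10 genes, every TSS ACS, all called ACS and, of other clock pathway genes, the 5 called ACS with the smallest p-value. Other ACS were named after their values were seen. *Clock* and *Arntl* were matched by gene identifier. Promoter sequences are those of RefSeq, GRCr8, matched for 9 of 10 genes. Alternatives were column sums, total reads, DESeq2 1.42.0, limma 3.58.1 (voom, or trend after cyclic loess scaling), a robust fit, a filter on low counts, an FDR under 0.05, distance limits and leaving out each library. Figures were drawn with matplotlib 3.10.9.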

Additional observations from a re-analysis of the deposited data

How the results depend on the processing

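No paired analysis was possible because the adult libraries carry the replicate numbers 4 to 6 and the P10 libraries 1 to 3, so no number is shared. Clock gene ACS called Up went from 13 to 1 with total reads, 5 at an FDR under 0.05, 4 when only ACS within 100000 bp of the gene were kept and 7 when every ACS within 50000 bp of a gene start was taken. Without 1 library they ranged from 5 to 14. Down went from 1 to 3 with column sums, 45 with total reads, 3 with loess scaling, 2 in the robust fit, 2 with the filter on low counts, 0 at an FDR under 0.05, 0 within 100000 bp and 4 in the window of 50000 bp, and from 1 to 3 without 1 library. The window of 50000 bp, around starts of genes found by symbol, and the addition of *Clock* and *Arntl* were chosen after seeing the data. For all ACS, Up (12504) became 1062 with total reads and 7177 at an FDR under 0.05, and 7973 to 13232 without 1 library. Down (6738) became 10732 with column sums, 61663 with total reads and 1945 at an FDR under 0.05, and 3285 to 7215 without 1 library. Genes called on summed counts went from 0 to 1 with column sums, 8 with total reads, 1 in the robust fit and 0 to 1 without 1 library. ACS of other clock pathway genes called went from 28 to 84 with total reads, 13 at an FDR under 0.05 and 16 to 35 without 1 library. Among the fits without 1 library, the lowest counts of other clock pathway ACS and of all ACS in both directions came without P10 replicate 2. DESeq2 and voom moved none of these counts by over 1.5 times.

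With total reads as library sizes, the median fold change of all ACS is -0.84, so most Up values turned negative. At *Cry1* the ACS at -210374 bp became -0.0889 and that at -177325 bp -0.0745. At *Nr1d2* the values were -0.26 at -203268 bp, -0.21 at -34555 bp, -0.70 at -650 bp, -0.78 at 279 bp, -0.26 at 3565 bp, -0.0386 at 49180 bp, -0.00133 at 143948 bp, -0.0326 at 198024 bp and -0.42 at 225332 bp. The *Per2* ACS at 997 bp became -0.70, and the sums of *Clock*, *Cry1*, *Cry2* and *Nr1d2* became -0.53, -0.67, -0.85 and -0.57.

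The other changes of sign were of values that were not called. The *Nr1d2* ACS at 279 bp was -0.0221 with column sums and -0.00779 with loess scaling, and the *Cry2* sum -0.0746 and -0.0413. Without 1 library the fold change ranged from -0.53 to 0.00751 at *Per1* (-696 bp), -0.0317 to 0.37 and -0.17 to 0.00895 at *Per2* (997 and 136 bp), -0.0986 to 0.0802 at *Cry2* (220 bp), -0.00682 to 0.17 at *Nr1d2* (279 bp) and -0.31 to 0.0103 at *Dbp* (-472 bp). The sums ranged from -0.12 to 0.00186 for *Arntl*, -0.17 to 0.12 for *Per2*, -0.10 to 0.18 for *Cry2* and -0.21 to 0.10 for *Nr1d1*. The cause was not tested.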
